A study of Arabidopsis thaliana with 8 samples.

Results

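PRK, the gene for phosphoribulokinase (AT1G32060, on chromosome 1 of Arabidopsis thaliana), was followed at 2 ages of the plant. It was found as the row of the deposited array table whose platform annotation names PRK and no other gene. It was 1 such row among 692 rows that name 1 gene and 3439 rows in all, and 0 rows named PRK together with other genes. Total RNA came from wild-type plants of the ecotype Columbia 0, the standard laboratory accession of thale cress, with 4 samples from plants 4 weeks old and 4 samples from plants 1 week old. No agent, mutation or transgene is given for either age. The labels name no organ, and they do not say that samples of the same age are from different plants. The p-values therefore cover the spread among these samples alone, and this spread may be technical. Below, an array means the values of 1 sample. The sources used here do not say whether samples of the same number shared a physical array. Of 14 marker genes of root, flower, seed and leaf senescence, 0 were on rows that name 1 gene, so these markers gave no check of the organs sampled. In such bulk samples, fewer cells of a type and less RNA per cell cannot be told apart.

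Phosphoribulokinase works in the stroma of the chloroplast, in the part of the Calvin cycle that regenerates the acceptor of CO2. It uses ATP to phosphorylate ribulose 5-phosphate and so makes ribulose 1,5-bisphosphate, to which Rubisco adds CO2. The enzyme is switched on in the light when thioredoxins reduce a disulfide bond in it, and in the dark it is held inactive in a complex with glyceraldehyde 3-phosphate dehydrogenase and the small protein CP12. The protein is encoded in the nucleus and imported into the chloroplast, so its transcript level is one of several steps that set the amount of active enzyme.

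The comparison between the ages asked how the PRK transcript differed between plants 4 weeks old and plants 1 week old. PRK rose about 2-fold in the older plants. The deposited signal, an array intensity in arbitrary units, was 1.96, 2.09, 1.78 and 2.19 in samples 1 to 4 of 4-week-old plants, against 0.786, 0.909, 1.03 and 1.09 in samples 1 to 4 of 1-week-old plants. All 4 samples of the older plants lay above all 4 samples of the younger plants. The means were 2.01 ± 0.175 at 4 weeks and 0.954 ± 0.134 at 1 week (SD, n = 4 each), a ratio of 2.103. The lowest sample of 4-week-old plants was still 1.64 times the highest sample of 1-week-old plants. The distance between these samples, 0.699 units, exceeded the whole range within the older samples (0.407 units) and within the younger samples (0.299 units).

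**Figure D1:**
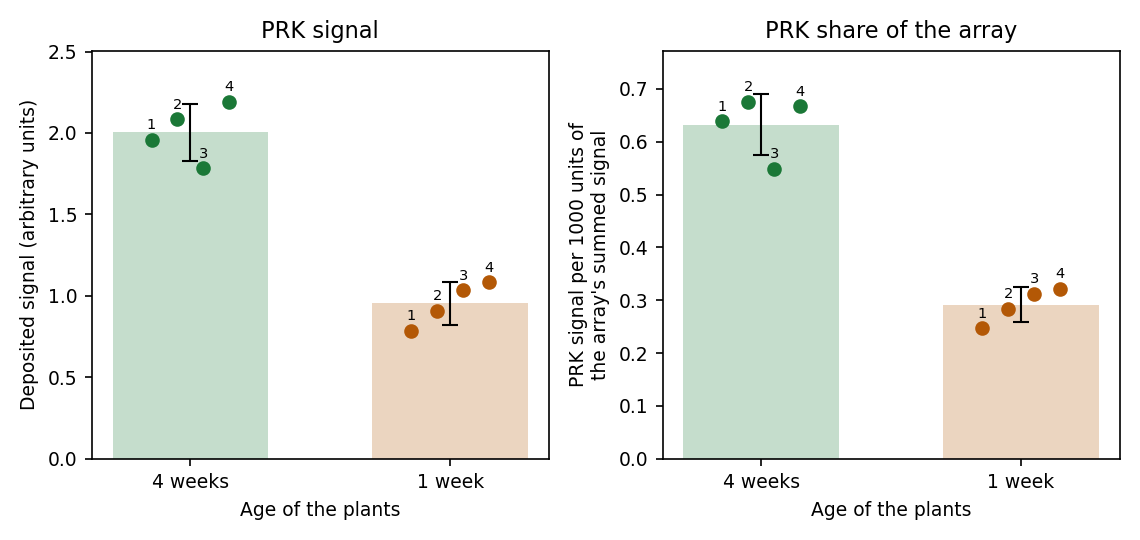
Deposited PRK signal in arbitrary units (left) and the PRK signal per 1000 units of the summed signal of the same array (right), with the 4-week samples left of the 1-week samples. Points are samples with their number, bars are means and error bars are 1 SD (n = 4 each). The 4-week signals lie between 1.78 and 2.19, all above the 1-week signals between 0.786 and 1.09.

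The size of the difference was estimated with limma on log2 values that had been quantile normalized over the arrays. The normalized log2 difference of PRK, 4 weeks minus 1 week, was 1.14 (SE 0.12, 95% interval 0.86 to 1.42, limma adjusted p = 0.000163). By the same test 45.7% of all 2924 tested rows and 44.6% of the 588 tested rows that name 1 gene passed in either direction, with 25.3% of all tested rows passing as higher at 4 weeks. Of the single-gene rows, 24.1% passed as higher and 20.4% as lower at 4 weeks. Passing the test was therefore common on this array. The balance of directions depended on the fit, with 741 rows higher and 596 lower here, but 322 higher and 405 lower with each pair of like samples (1 and 2, 3 and 4) as a random effect. Non-overlap was about as common as a called rise, since in 24.5% of the single-gene rows every measured 4-week value lay above every 1-week value.

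The size of the rise placed PRK in the upper part of the single-gene rows. Its log2 difference was number 43 of 588, and 92.7% of these rows had a smaller one. The median log2 difference was 0.16 over the single-gene rows, with quartiles of −0.38 and 0.55. Over all tested rows the median was also 0.16. Relative to that median, PRK was higher by 0.98 on the log2 scale. Without normalization between arrays, all rows had a median log2 difference of 0.21 and PRK one of 1.08, which was 0.87 above the median and number 53 of 588. The single-gene rows next to PRK in size of rise were CSLA01, a cellulose synthase-like gene (log2 difference 1.154), AT1G76450 (1.1499) and AT4G20760 (1.140) just above. Just below it came AT4G32060 (1.121), AT4G20690 (1.091) and GLX2-1, a glyoxalase gene (1.091). With an SE of 0.12 for PRK, these neighbours cannot be put in an order.

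**Figure D2:**
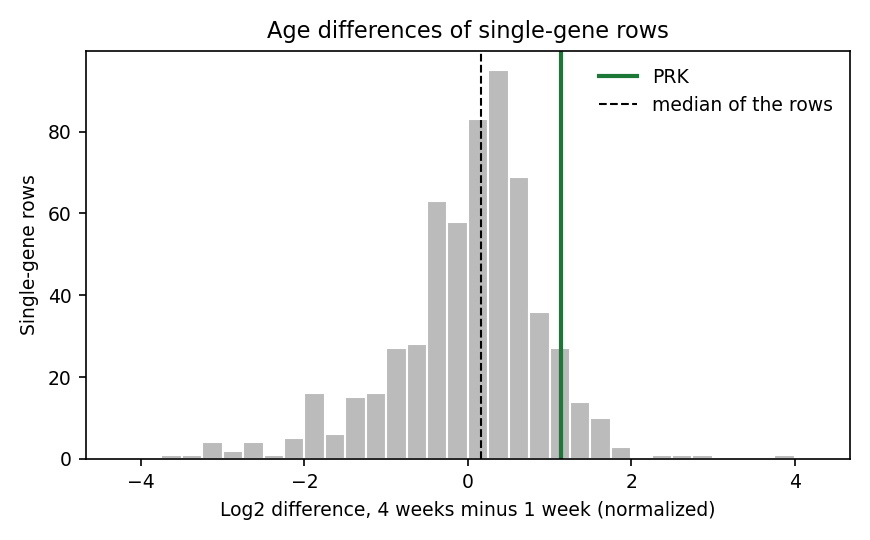
Histogram of the normalized log2 difference, 4 weeks minus 1 week, over the 588 tested rows that name 1 gene, in bins of equal width. The solid line marks PRK at 1.14 and the dashed line the median of the rows at 0.16, and 92.7% of the rows lie left of PRK.

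PRK was also measured with less spread than the median single-gene row. Its coefficient of variation was 8.73% over the 4-week samples and 14.1% over the 1-week samples, against medians of 14.1% and 18.2% at these ages over the 564 single-gene rows above 0 in every sample. The residual SD of PRK in the log2 fit was 0.14, against a median of 0.27 over the tested single-gene rows. It was number 80 of 588 from the smallest. These medians cover rows of all signals, while PRK was number 58 of 692 in mean signal. Its spread was not compared with that of rows of like signal. In p-value PRK was number 46 of these 588 rows.

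Samples with the same number in the labels gave a ratio of 4 weeks over 1 week of 2.49 for number 1, 2.29 for number 2, 1.73 for number 3 and 2.02 for number 4. The ratio was thus above 1 for all 4 numbers, and higher for numbers 1 and 2 than for numbers 3 and 4. Across the array, samples 1 and 2 of an age resembled each other, as did samples 3 and 4, and no label says why. The normalized log2 difference of PRK was 1.296 in samples 1 and 2 alone (limma adjusted p = 0.00520) and 0.979 in samples 3 and 4 alone (limma adjusted p = 0.0104). A test of the difference between these values gave 0.32 (SE 0.19), which did not pass (limma adjusted p = 0.397, unadjusted p = 0.139). In the 1-week samples PRK was lowest in numbers 1 and 2, while in the 4-week samples it was lowest in number 3.

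The position of PRK within each array does not depend on scaling between arrays. Ranked by deposited signal among the 692 single-gene rows, with 1 as the highest, PRK stood at 37, 34, 48 and 36 in samples 1 to 4 of 4-week-old plants. In samples 1 to 4 of 1-week-old plants it stood at 171, 140, 127 and 123. The groups did not overlap, and PRK stood higher on the arrays of the older plants, with mean ranks of 38.8 ± 6.29 at 4 weeks and 140.3 ± 21.7 at 1 week (SD, n = 4 each). The exact two-sided permutation test over samples gave p = 0.0286, the smallest that 70 assignments of the samples allow. Tests over these assignments take the samples as unpaired, although same-numbered samples resembled each other across the array. An exact permutation within the 4 numbers was not run for the rank, and could give no p below 0.125. Among all 3439 rows the ranks ran from 155 to 211 at 4 weeks and from 544 to 768 at 1 week. A rank orders the signals of rows, which also depend on the probe, and is no order of transcript abundance between genes.

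**Figure D3:**
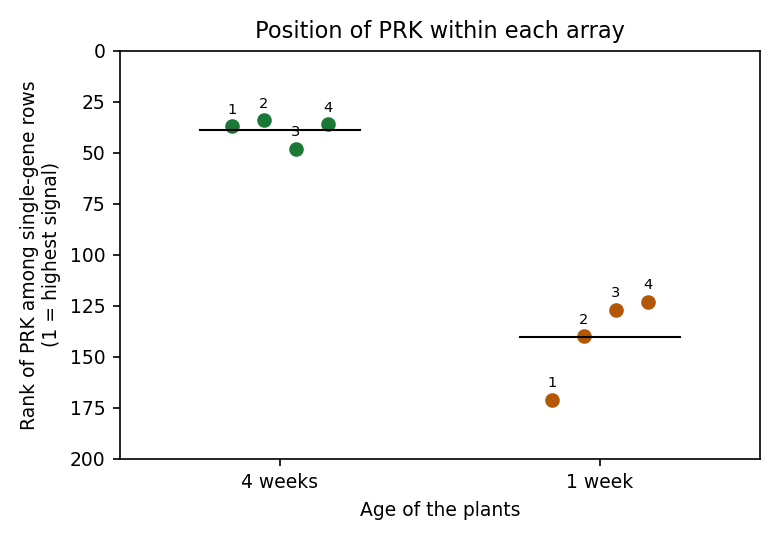
Rank of the PRK signal among the 692 rows that name 1 gene in each sample, with 1 as the highest signal at the top. Points are samples with their number and lines are the means of the 4 samples of an age. The 4-week samples stand at 34 to 48 and the 1-week samples at 123 to 171.

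As a share of the summed signal of its array, PRK made up 0.632 ± 0.0577 per 1000 units at 4 weeks and 0.291 ± 0.0334 per 1000 units at 1 week (SD, n = 4 each; exact two-sided permutation p = 0.0286). The older value was 2.17 times the younger one. The array sums themselves ran from 3070 to 3286 at 4 weeks and from 3176 to 3374 at 1 week. Set against the median signal of its array, PRK was 4.08 to 5.09 times that median at 4 weeks and 2.02 to 2.66 times at 1 week. Both within-array measures thus put every 4-week sample above every 1-week sample.

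By mean signal over all 8 samples PRK was number 58 of 692 single-gene rows, and its mean of 1.48 units compares with a median of 0.431 units over these rows. Rows of like mean signal differed in what they did with age. Of the 3 rows just above it, AT2G46850 fell (log2 difference −2.77, limma adjusted p = 3.04e-05), AT2G46630 rose 2.46-fold (limma adjusted p = 0.00176) and AT5G55570 had a log2 difference of 0.13 (limma adjusted p = 0.410). Of the 3 rows just below it, AT1G17160 fell (−1.91, limma adjusted p = 2.89e-05), while AT2G46300 and AT1G61990 had 0.23 and −0.03 (limma adjusted p = 0.371 and 0.835).

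Little of the Calvin cycle could be set beside PRK. Of 20 other listed genes of the cycle, SBPASE alone was on a row that names 1 gene. It encodes sedoheptulose-1,7-bisphosphatase, which acts earlier in the same regeneration of the acceptor. SBPASE was listed at 0 in samples 1 and 2 of 4-week-old plants and at 7.04e-05 and 0.0394 in samples 3 and 4, against 0 in all 4 samples of 1-week-old plants. It was not tested, and a listed 0 in a gene that green tissue uses does not show that the transcript was absent. The CP12 genes and the genes of the small subunit of Rubisco were not on rows that name 1 gene, and Rubisco activase was on a row with several genes and was not read.

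Thioredoxins receive their electrons from ferredoxin through ferredoxin-thioredoxin reductase, whose catalytic subunit is encoded by FTRB (AT2G04700). Its deposited signal was 0.148, 0.176, 0.278 and 0 in samples 1 to 4 of 4-week-old plants, against 0.139, 0.117, 0.176 and 0.0692 in samples 1 to 4 of 1-week-old plants. The ages overlapped, and the sample listed at 0 was left out of the fit. The log2 difference was 0.50 (SE 0.33, limma adjusted p = 0.252), and −0.14 when the 0 was kept with a pseudocount. NTRC, an NADPH-dependent thioredoxin reductase of the chloroplast, had signals of 0.357 to 0.539 at 4 weeks and 0.353 to 0.504 at 1 week. Its log2 difference was 0.01 (SE 0.16, 95% interval −0.35 to 0.36, limma adjusted p = 0.981).

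Of the 127 genes on the 8 pathway lists, which cover the Calvin cycle and its regulators, photorespiration, starch and sucrose synthesis, the light reactions, chlorophyll synthesis and chaperonins, 11 were on rows that name 1 gene. Besides PRK, 9 of them had enough measured samples for limma. Among these 9 genes there were 3 rises and 0 falls, and the other 6 missed the threshold, against the 24.1% of single-gene rows called higher at 4 weeks, and their median log2 difference was 0.50. Without normalization between arrays 2 of the 9 rose and 1 fell, where 819 of all 2924 tested rows rose and 584 fell. With arrays centred on their medians 2 also rose and 1 fell, where 723 of all tested rows rose and 622 fell. No label says that samples of the 2 ages are paired, and the number was taken as a pair because same-numbered samples resembled each other. With the number as a block 6 of the 9 rose and 1 fell, where 955 of all 2924 tested rows rose and 701 fell. Samples 1 and 2 of an age, and samples 3 and 4, also resembled each other. With each such pair of samples as a random effect 0 of the 9 passed by limma, against 727 of all 2924 rows. With the pairs averaged and set as a block 2 rose, where 550 of all 2924 rows rose and 510 fell.

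Chlorophyll synthesis was represented by CHLM, for magnesium protoporphyrin IX methyltransferase, and by CHLP (AT1G74470), for geranylgeranyl reductase, which makes the phytol tail. CHLM had signals of 0.767, 0.752, 0.735 and 0.844 in samples 1 to 4 of 4-week-old plants, against 0.597, 0.531, 0.599 and 0.631 in samples 1 to 4 of 1-week-old plants. CHLP had 2.75, 2.59, 2.39 and 2.297 in the 4-week samples, against 2.07, 1.94, 1.72 and 1.66 in the 1-week samples. In both genes all older samples were above all younger samples. Both rose, CHLM by 0.38 (SE 0.10, limma adjusted p = 0.0156) and CHLP by 0.54 (SE 0.16, limma adjusted p = 0.0237) on the log2 scale. Neither passed with samples 1 and 2, and samples 3 and 4, averaged before the fit (limma adjusted p = 0.264 and 0.231), where PRK did (0.0389). The call of CHLP was also lost when 4-week sample 1 or 2 was left out (limma adjusted p = 0.0649 and 0.0627) or when 1-week sample 3 or 4 was (0.0628 and 0.0625).

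In the light reactions, PSAN, for a photosystem I subunit in the thylakoid lumen, had signals of 2.79 to 3.62 at 4 weeks and 2.32 to 3.19 at 1 week. The ages overlapped, and the gene rose, with a log2 difference of 0.39 ± 0.13 (SE) and a limma adjusted p of 0.0389. This call was lost without normalization between arrays (0.26, limma adjusted p = 0.176). It was also lost without any 1 of 6 samples, namely samples 2, 3 and 4 of 4-week-old plants (limma adjusted p = 0.0793, 0.0886 and 0.0904) and samples 1, 3 and 4 of 1-week-old plants (0.0860, 0.0969 and 0.0549). The light-harvesting gene LHCB1.5, one of several near-identical genes for the antenna of photosystem II, had signals of 4.74 to 7.80 at 4 weeks and 9.06 to 15.3 at 1 week. Here every older sample was below every younger one. Its normalized log2 difference was −0.46 (SE 0.23, limma adjusted p = 0.135), and it was −0.94 without normalization between arrays (limma adjusted p = 0.00901). With the number as a block it passed (limma adjusted p = 0.0139), but not when the pairs of like samples were averaged and set as a block (0.126).

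The photosystem II genes PSBW and PSBY, for small membrane subunits, and PSB27, for an assembly factor, varied more between samples than PRK did. PSBY had signals of 0.435, 0.612, 2.66 and 2.14 in samples 1 to 4 of 4-week-old plants, against 0.199, 0.242, 1.45 and 1.24 in samples 1 to 4 of 1-week-old plants. At both ages samples 3 and 4 were the high ones, and each 4-week sample was above the 1-week sample of the same number. Its log2 difference of 1.09 was close to that of PRK, yet its SE of 0.83 was far larger (limma adjusted p = 0.314). With the number as a block the SE was 0.11 and PSBY rose (limma adjusted p = 0.00117). PSB27 and PSBW had log2 differences of 0.89 and 0.60 (limma adjusted p = 0.146 and 0.158, and 0.00923 and 0.0286 with the number as a block). The PSBW difference depended on the scaling. It was 0.09 without normalization between arrays (limma adjusted p = 0.839) and 0.04 with arrays centred on their medians (0.927). In these scalings PSB27 had 0.86 and 0.82. The signals of PSBW were 25.4, 28.3, 15.3 and 18.2 in samples 1 to 4 at 4 weeks. At 1 week they were 27.2, 29.5, 12.9 and 15.1. In the blocked fit of averaged pairs of samples PSB27 passed (limma adjusted p = 0.0325), as did PSBY (0.0107), and PSBW did not (0.0945). PRK itself had an SE of 0.12 with and without the number as a block, and passed in both (limma adjusted p = 0.00116 with the block). In the blocked fit of averaged pairs its SE was 0.21, and it passed (limma adjusted p = 0.00928).

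**Figure D4:**
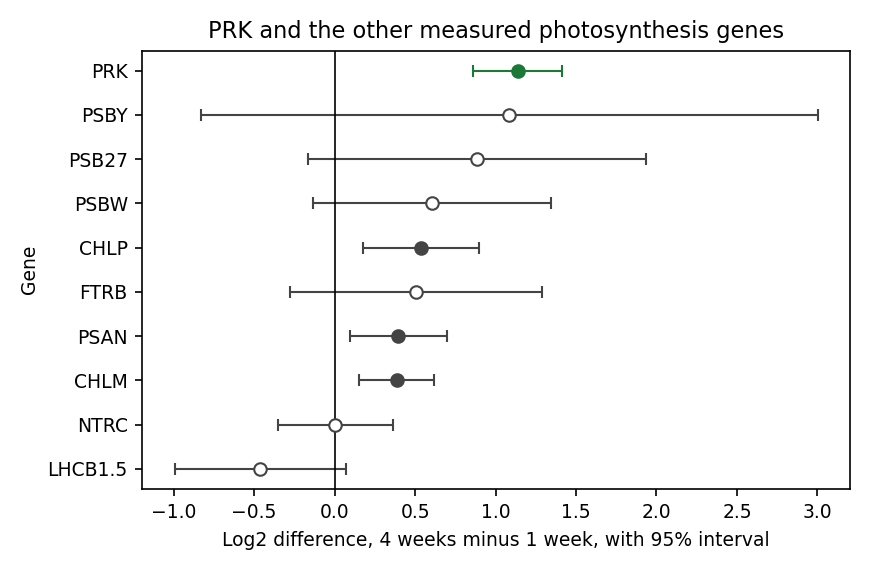
Normalized log2 difference, 4 weeks minus 1 week, of PRK and the 9 other tested photosynthesis genes of the lists, with 95% intervals from limma without a block. Filled points passed at an adjusted p under 0.05 and open points did not. PRK at 1.14 has an interval of 0.86 to 1.42, and PSBY at 1.09 one of −0.83 to 3.001.

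Whether PRK differed more between the ages than these genes was tested within arrays, in a comparison chosen after the data had been seen. For each of 8 listed genes above 0 in all samples, the log2 ratio of the PRK signal to that of the gene was compared between the ages. Against CHLM, the ratio was 1.37 ± 0.08 at 4 weeks and 0.69 ± 0.19 at 1 week (SD, n = 4 each), a difference of 0.68 in the exact two-sided permutation test (p = 0.0286, 0.0458 after Benjamini-Hochberg adjustment over the 8 genes). The difference of the ratio was 0.64 against CHLP, 0.82 against PSAN, 1.01 against NTRC and 2.02 against LHCB1.5, with the same exact p and adjusted p. In these 5 genes the ratio was higher in all 4 samples of the older plants than in any sample of the younger plants. Against LHCB1.5 this outcome was fixed in advance, because every 4-week signal was higher for PRK and lower for LHCB1.5. The adjustment over the 8 genes counts that test and was not repeated without it. The ratio of PRK to other single-gene rows was not computed. PRK rose more than 92.7% of the 588 tested ones, so this separation cannot be read as particular to the 5 genes. The difference of the ratio did not pass against PSBW (0.99, exact permutation p = 0.114), PSB27 (0.21, p = 0.714) or PSBY (0.05, p = 0.914). That does not show that they changed alike. Between samples of the same number, the ratio was higher at 4 weeks for 4 of 4 numbers against PSBW, as against the 5 genes above, and for 2 of 4 against PSB27 and PSBY. An exact two-sided permutation test over the 4 numbers, also chosen after the data had been seen, gave p = 0.125 against PSBW and each of these 5 genes, the smallest it allows.

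On the chromosome, the reference gene table places the span of PRK so that it overlaps one end of its neighbour NSI, which was not on a row that names 1 gene. The sources used here do not give the part of PRK that the array probe covers, and whether it reaches NSI was not tested. A neighbouring gene with a single-gene row was LrgB (AT1G32080), included here for its position. LrgB encodes the glycolate and glycerate transporter of the chloroplast envelope that serves photorespiration. It was listed at 0 in all 8 samples, so it gave no level to set beside that of PRK.

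The single-gene rows whose pattern was most like that of PRK were found by Pearson's correlation of normalized log2 signals over the 8 samples, among 563 genes measured in every sample. They were AT5G65360, a gene for histone H3.1 of the chromatin (r = 0.986, Spearman's rho 0.881), AT5G15280 (0.971, rho 0.643), AT3G04500 (0.970, rho 0.929), AT4G39760 (0.970, rho 0.857) and AT5G52810 (0.970, rho 0.762). These correlations rest mostly on the 2 ages standing apart, and 46 genes had one over 0.9. Histone H3 genes are near-identical copies, so the signal of that row may come from several of them. AT5G65360 had signals of 0.820, 0.936, 0.876 and 0.994 in samples 1 to 4 of 4-week-old plants, against 0.415, 0.476, 0.448 and 0.465 in samples 1 to 4 of 1-week-old plants. It rose by 0.98 ± 0.10 (log2 difference and SE) with a limma adjusted p of 0.000161, while the other 4 genes rose by 0.43 to 1.61. CHLM was the listed gene most like PRK, with r = 0.945.

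With the mean of each age taken off, the likeness describes how samples of one age deviate together. The genes then most like PRK were AT5G66530 (r = 0.909), AT2G21960 (0.906), AT3G04500 (0.887), AT3G23940 (0.843) and AT1G04420 (0.843). AT3G04500 stood among the leading 5 in both measures. The 5 genes of this measure were picked as the highest of 563 over 8 samples. Whether the highest among unrelated genes would reach such values was not tested. The likeness between samples across the array was not allowed for either, so shared behaviour cannot be read from these correlations. AT3G23940, for dihydroxyacid dehydratase of branched-chain amino acid synthesis, was among these 5 but did not share the direction of PRK with age. Its log2 difference was −1.13 (SE 0.10, limma adjusted p = 5.79e-05), with signals of 0.371 to 0.430 at 4 weeks and 0.755 to 0.889 at 1 week. AT5G66530 also fell (log2 difference −0.67, limma adjusted p = 0.0314). Of the listed genes, CHLM had 0.35 and CHLP −0.37 in this measure.

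**Figure D5:**
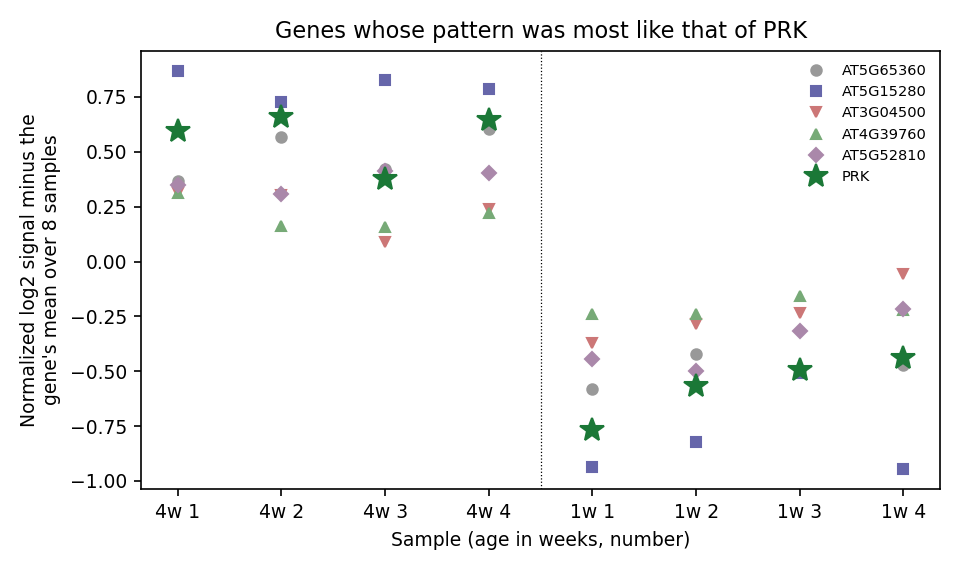
Normalized log2 signal of PRK and of the 5 single-gene rows most like it over the 8 samples, each minus its mean over the samples, with the 4-week samples left of the dotted line. Points are single samples. All 6 genes lie above their mean in each 4-week sample and below it in each 1-week sample, and correlations with PRK run from 0.970 to 0.986.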

How the data were processed

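The deposited table gives, for each row and sample, a linear array intensity. The sources used here do not give the authors' scanning, background correction or scaling of these deposited intensities. The layout of channels on the arrays is not given either. They are never below 0, hold exact 0s (11.3% to 13.6% of the rows of a sample) and end at a ceiling of 100. The number of samples limits the precision. Rows were named from GEO's platform annotation, updated with a RefSeq gene table of the assembly TAIR10.1. Of the rows, 692 name 1 gene (690 found in that table), 870 several and 1877 are unnamed here.

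Log2 was taken of the values above 0, and a 0 counted as missing. Quantile normalization was applied because array medians differed by up to 0.13 (log2). Rows with fewer than 3 measured samples in either age, and 2 rows at the ceiling in all samples, were left out, which kept 2924 rows and dropped 515. The difference, 4 weeks minus 1 week, was fitted per row in R 4.3.3 with limma 3.58.1 (lmFit, then eBayes), with Benjamini-Hochberg adjustment over all rows and a threshold of 0.05. The fit was tested on simulated data with noise drawn independently for each sample, so the likeness between samples was not covered. Single values were tested by exact two-sided permutation over 70 assignments.

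PRK and the gene lists were chosen with earlier results of these data known. Named genes are PRK, the listed genes, the 5 most like PRK in each measure, and the 3 rows above and below it in log2 difference and in mean signal. Once age means were taken off, the correlation between same-numbered samples was 0.425 to 0.527. The numbers were therefore treated as pairs in the alternative fit with the number as a block. The permutation of the ratios over the numbers did so too. The main limma fit and the exact permutation tests over assignments of the samples took the samples as unpaired. The pairing by number comes from the data alone. Other numbers within 1 and 2 and within 3 and 4 correlated at 0.180 to 0.397. Within 3 and 4 the same numbers had 0.425 and 0.433 and the other numbers 0.397 and 0.343, so pairs by number hardly stood out there. Other scalings, filters, blocks and left-out samples were tried as alternatives.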

Additional observations from a re-analysis of the deposited data

Results flagged for a closer look

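In 3 of 63 sets of 4 samples of the named genes, 1 sample stood far from the other samples of its age, where chance gives about 1 in 20. Neither age of PRK was among them. In SBPASE the highest 4-week sample, number 4, was set off by 0.998 of the range of the 4 samples, the others being at or next to 0. In AT3G04500 the lowest 4-week sample, number 3 with 1.03 units, was set off by 0.847 of the range. In AT5G55570 the highest 4-week sample, number 4 with 1.81 units, was set off by 0.853 of the range.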

How the results depend on the processing

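PRK rose past the threshold under all 22 limma alternatives, with log2 differences of 0.979 to 1.296 and adjusted p from 5.11e-05 to 0.0389, the latter with samples 1 and 2, and samples 3 and 4, averaged. Without any 1 sample the difference ran from 1.07 to 1.203. The replicate block left it at 1.14 (limma adjusted p = 0.00116). The exact permutation test gave p = 0.0286, without pairing by number and without adjustment over rows. The change of its mean rank, −101.5 places, ran from −107 to −91.3 without any 1 sample, where the exact permutation p is 0.0571, the smallest possible, and was −456.5 among all rows. The count of 1337 called rows became 727 with each such pair of samples as a random effect, 400 with the pairs averaged (145 higher, 255 lower), and 275 with single-gene rows alone, where fewer rows were tested. The 3 calls among the 9 other listed genes became 7 with the replicate block and 7 with the pairs as a block. These 2 fits called 1656 and 1692 of all 2924 rows. Without normalization between arrays, and with arrays centred on their medians, there were still 3 calls, but as 2 rises and 1 fall. These 2 scalings called 1403 and 1345 of all 2924 rows. In samples 3 and 4 alone 5 of 8 tested listed genes were called, against 1404 of all 2870 tested rows. The calls became 0 with the random effect and 0 with averaged pairs. Without any 1 sample there were 1 to 3, with 1 left without 4-week sample 2 or 1-week sample 3 or 4. Over all rows 1071 to 1283 were then called. The sign turned in genes not called, to −0.14 for FTRB with a pseudocount. For NTRC it turned to −0.00779 with a pseudocount and −0.0290 in samples 1 and 2 alone, and without any 1 sample its values ran from −0.0912 to 0.0977. The cause of these changes was not tested. The alternative with rows at the ceiling kept and the ratios within arrays were chosen after seeing the data.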
